A study of Mus musculus with 48 samples.

Results

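The glucocorticoid receptor gene and 6 genes tied to it (Hsd11b1, Fkbp5, Tsc22d3, Zbtb16, Sgk1 and Arrdc3) were followed in mouse liver over 4 doses of dichloroacetic acid (DCA), a by-product of water chlorination that inhibits pyruvate dehydrogenase kinases and raises liver tumours in mice. The 7 members were chosen by name, with the frozen tissue values of the lowest dose in view, where Fkbp5 was low. All 7 were listed among the 11275 genes of the frozen (FROZ) table and 6 among the 6673 genes of the formalin-fixed, paraffin-embedded (FFPE) table, where Sgk1 was not listed.

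Male B6C3F1 mice, 4 weeks of age, drank DCA for 6 days at 0, 198, 313 or 427 mg/kg-d, with 6 mice at each dose, and the 0 mg/kg-d mice were the controls. Each of the 24 animals gave 1 FROZ library from mixed liver lobes and 1 FFPE library from the left lateral and right medial lobes, both from archived tissue. FROZ libraries were made from RNA isolated earlier and FFPE libraries from lysed sections without RNA isolation. Preservation and preparation therefore cannot be told apart where FROZ and FFPE are compared. TempO-Seq was the assay, in which pairs of DNA probes are ligated on their RNA target and sequenced, so that a level reflects the probe site and levels of different genes were not compared. Levels are log2(CPM + 1), where CPM is the number of reads of a gene scaled to a fixed library total, and FROZ and FFPE levels were scaled separately.

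Glucocorticoids bind the receptor encoded by Nr3c1, which is held ready by heat shock proteins, moves to the nucleus and switches genes on or off at glucocorticoid response elements. In the liver it drives the fasting program of gluconeogenesis and amino acid breakdown. The hormone follows the time of day, and the enzyme encoded by Hsd11b1 makes active corticosterone from its inactive form inside hepatocytes.

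FROZ libraries held 6.69 to 9.84 M reads on listed genes and FFPE libraries 1.83 to 6.01 M. The number of listed genes at exactly 0 ran from 12 to 61 in FROZ and from 65 to 1587 in FFPE, with FFPE medians of 281.5, 983, 633.5 and 134.5 genes from 0 to 427 mg/kg-d. The doses therefore differed in detection within FFPE, and its part in the FFPE results was not tested beyond leaving out the 4 libraries with over 1000 genes at 0 (animals 49, 52 and 54 at 198 mg/kg-d and 73 at 313 mg/kg-d). All 8 hepatocyte markers were detected in FROZ, with a median summed level of 36130 CPM in controls and 34930, 29070 and 30260 CPM from 198 to 427 mg/kg-d, and the controls (30740 to 39390) overlapped every dose. In FFPE the summed level of the 7 listed markers at 427 mg/kg-d (28740 to 33320 CPM) lay below all controls (39440 to 53560 CPM). The highest genes weigh most in this sum. Of the 7, only Apoa1 passed an FDR under 0.05 there (-0.79 on the log2 scale, limma FDR = 0.00779), while Ttr (0.61) and Hnf4a (0.26) were higher without passing it. Of single FFPE genes, 4.48% had no overlap with the controls at that dose. The part of these levels in the results below was not tested. In bulk liver, fewer cells of a type and less RNA per cell cannot be told apart.

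Genes other than Nr3c1 lie, on GRCm38, at chromosome 1 193221634-193264075 for Hsd11b1 and chromosome 17 28399094-28517527 for Fkbp5, both on the minus strand. Tsc22d3 lies at chromosome X 140539528-140600659 and Zbtb16 at chromosome 9 48654297-48836222, also on the minus strand. Sgk1 at chromosome 10 21882184-21999903 and Arrdc3 at chromosome 13 80883384-80896042 are on the plus strand. All 7 are protein coding, and no exon of another GENCODE gene shares bases with theirs.

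Promoter windows from 250 bases before to 50 bases after the start of transcription were taken from RefSeq (GRCm38.p6), where 5 of the 7 members (not Zbtb16 and Nr3c1) matched with 14 windows. They were searched on both strands for a palindromic glucocorticoid response element, AGAACA, any 3 bases, then TGTTCT. It was present in 3 of 32851 promoter windows (0.00913%), and 1 of these 3 was a window of Sgk1. Sgk1 had the most windows of the 5 matched members, and its other windows matched 7 to 10 of the 12 fixed bases. It overlapped its controls at every dose, at 5 to 44 reads per FROZ library. The 4 windows below are shown because they set the full match in Sgk1 beside 3 genes that were lower at the upper doses. The capitals mark the 15 bases closest to the element in each window, which matched all 12 fixed bases in Sgk1 (chr10:21993640-21993939, plus strand), 6 in Fkbp5 (chr17:28486100-28486399, minus strand), 8 in the closest of 3 Tsc22d3 windows (chrX:140548522-140548821, minus strand) and 8 in Hsd11b1 (chr1:193242311-193242610, minus strand).
Sgk1: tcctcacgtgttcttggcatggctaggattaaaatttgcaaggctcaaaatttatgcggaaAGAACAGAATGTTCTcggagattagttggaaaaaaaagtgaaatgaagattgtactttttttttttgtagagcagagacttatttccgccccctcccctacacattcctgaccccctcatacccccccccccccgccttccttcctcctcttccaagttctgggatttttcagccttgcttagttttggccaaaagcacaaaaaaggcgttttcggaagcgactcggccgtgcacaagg
Fkbp5: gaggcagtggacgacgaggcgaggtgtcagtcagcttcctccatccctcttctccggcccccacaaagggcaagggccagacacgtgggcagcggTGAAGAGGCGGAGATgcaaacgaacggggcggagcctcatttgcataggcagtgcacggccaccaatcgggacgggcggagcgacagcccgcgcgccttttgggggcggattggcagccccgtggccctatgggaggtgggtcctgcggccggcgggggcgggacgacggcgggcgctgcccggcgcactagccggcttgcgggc
Tsc22d3: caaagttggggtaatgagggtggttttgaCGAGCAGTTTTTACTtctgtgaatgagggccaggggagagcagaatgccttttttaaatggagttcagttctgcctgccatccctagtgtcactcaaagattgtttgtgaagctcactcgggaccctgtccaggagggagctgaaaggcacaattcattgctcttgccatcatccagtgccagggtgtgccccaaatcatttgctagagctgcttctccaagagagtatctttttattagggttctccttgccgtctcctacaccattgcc
Hsd11b1: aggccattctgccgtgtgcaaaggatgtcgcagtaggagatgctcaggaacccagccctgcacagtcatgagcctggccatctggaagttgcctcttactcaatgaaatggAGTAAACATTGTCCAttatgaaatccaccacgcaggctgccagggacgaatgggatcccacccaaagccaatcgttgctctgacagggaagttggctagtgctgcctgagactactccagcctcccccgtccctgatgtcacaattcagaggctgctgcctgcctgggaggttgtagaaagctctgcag
A match to 8 or more of the 12 bases occurred in 57% of all windows and a match to 6 or more in 99.9%, so the windows of Fkbp5, Tsc22d3 and Hsd11b1 were like most promoters by this measure. Elements outside these windows were not searched.

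In FROZ liver the receptor gene itself overlapped its controls at every dose, while 4 genes that act with it or downstream of it were low. Fkbp5 was lowest at the lowest dose, Hsd11b1, Tsc22d3 and Zbtb16 were lowest at the upper doses, Sgk1 overlapped the controls at every dose, and Arrdc3 was high at every dose. The values of the 198 mg/kg-d animals took part in choosing the members and are given as a description, without a test.

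**Figure D1:**
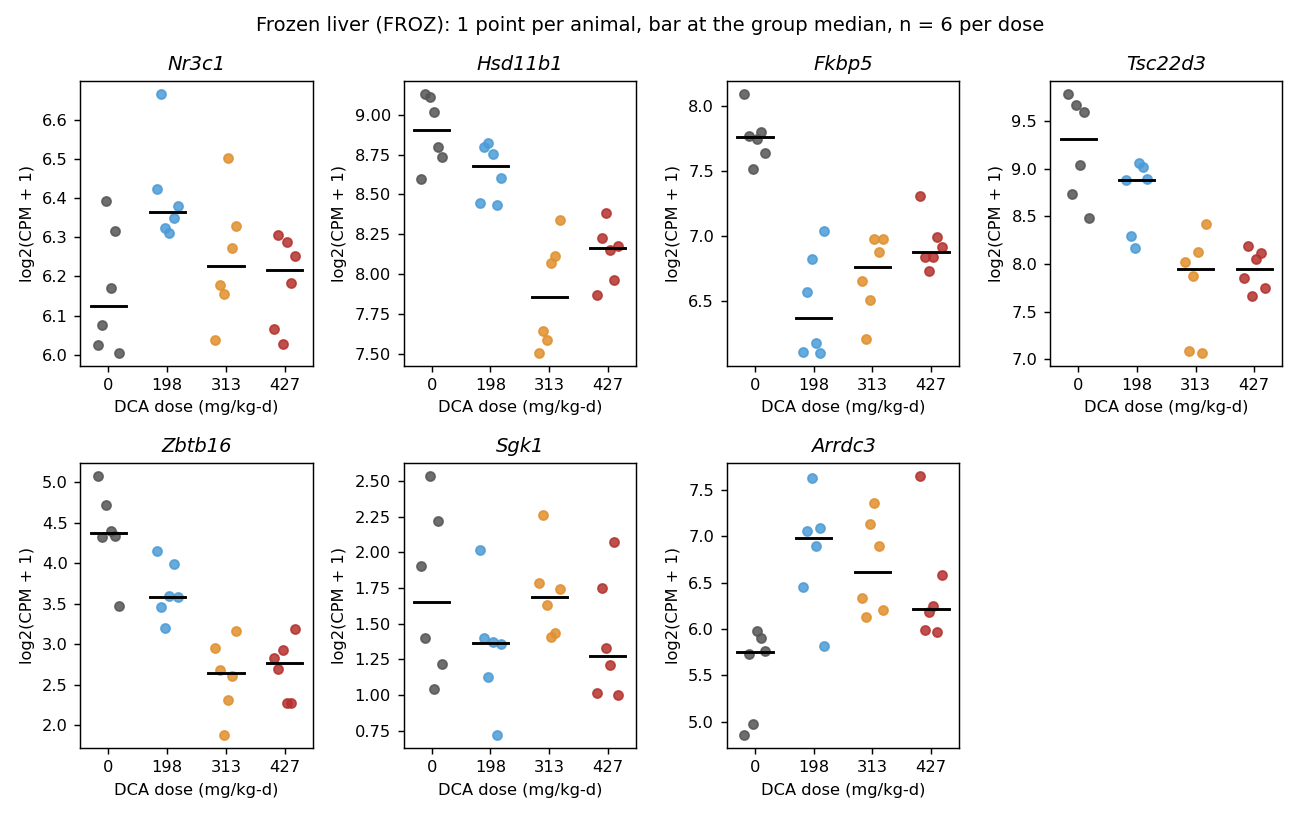
Levels of the 7 genes in FROZ liver as log2(CPM + 1), vertical axis, at each DCA dose in mg/kg-d, horizontal axis, with 1 point per animal, a bar at the median and a separate vertical scale for each gene. All 12 animals of the upper doses sit below the 6 controls for Fkbp5, Hsd11b1, Tsc22d3 and Zbtb16. For Fkbp5 the 6 animals of the lowest dose do so too, as a description, since their values took part in choosing the members.

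Nr3c1, on the minus strand of chromosome 18 at 39410545-39519421 (GRCm38), encodes the receptor. Its controls ran from 6.01 to 6.39 with a median of 6.12 log2(CPM + 1), the 198 mg/kg-d animals from 6.31 to 6.67 (median 6.36), the 313 mg/kg-d animals from 6.04 to 6.50 (median 6.23) and the 427 mg/kg-d animals from 6.03 to 6.31 (median 6.22). The groups overlapped at every dose. Against the controls, the log2 difference was 0.24 (SE 0.087) at 198, 0.08 at 313 (limma FDR = 0.530, 95% interval -0.10 to 0.26) and 0.02 at 427 mg/kg-d (FDR = 0.880, -0.16 to 0.20), and both intervals lay well inside a 2-fold change.

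Hsd11b1 encodes the hormone-activating enzyme. Its FROZ controls ran from 8.60 to 9.13 (median 8.91), followed by 8.43 to 8.82 (median 8.68) at 198, 7.51 to 8.34 (median 7.85) at 313 and 7.87 to 8.38 (median 8.16) at 427 mg/kg-d. The 198 mg/kg-d animals overlapped the controls, whereas all 12 animals of the upper doses lay below every control. The log2 difference from controls was -0.26 (SE 0.13) at 198, -1.02 (SE 0.13, FDR = 1.65e-06) at 313 and -0.77 (SE 0.13, FDR = 4.18e-05) at 427 mg/kg-d.

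Fkbp5 encodes an immunophilin that binds the receptor complex, lowers its affinity for hormone and is itself switched on by the receptor. Its FROZ controls ran from 7.52 to 8.09 (median 7.76), the 198 mg/kg-d animals from 6.10 to 7.03 (median 6.37), the 313 mg/kg-d animals from 6.21 to 6.98 (median 6.77) and the 427 mg/kg-d animals from 6.73 to 7.30 (median 6.88). None of the 6 animals at 313 or the 6 at 427 mg/kg-d reached the lowest control, nor, as a description, did those at 198 mg/kg-d. The difference from controls was -1.29 (SE 0.15) on the log2 scale at 198, a level 2.45-fold lower, then -1.06 (FDR = 9.79e-06) at 313 and -0.82 (FDR = 0.000132) at 427 mg/kg-d, each with an SE of 0.15. The step from 198 to 313 mg/kg-d was 0.23 upwards, as a description, and that from 313 to 427 mg/kg-d was 0.24 (FDR = 0.434, 95% interval -0.07 to 0.55), so the order of the treated doses did not exceed the spread between animals in the last step.

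Tsc22d3 encodes the glucocorticoid-induced leucine zipper, an anti-inflammatory target of the receptor. Its FROZ controls ran from 8.48 to 9.78 (median 9.32), followed by 8.17 to 9.06 (median 8.89) at 198, 7.07 to 8.42 (median 7.95) at 313 and 7.66 to 8.19 (median 7.95) at 427 mg/kg-d. The controls overlapped the 198 mg/kg-d animals and lay above all 12 animals of the upper doses. The log2 difference was -0.50 (SE 0.23) at 198, -1.45 (SE 0.23, FDR = 3.42e-05) at 313 and -1.28 (SE 0.23, FDR = 9.68e-05) at 427 mg/kg-d.

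Zbtb16 encodes the zinc finger repressor PLZF, a steroid-induced gene in many tissues. Its FROZ controls ran from 3.47 to 5.07 (median 4.37), followed by 3.20 to 4.15 (median 3.59) at 198, 1.88 to 3.16 (median 2.65) at 313 and 2.27 to 3.18 (median 2.76) at 427 mg/kg-d. Again the 198 mg/kg-d animals overlapped the controls and the upper doses did not. It had the largest fall of the 7 genes at the upper doses, with a log2 difference of -0.72 (SE 0.23) at 198, -1.78 (SE 0.23, FDR = 2.05e-06) at 313 and -1.69 (SE 0.23, FDR = 2.33e-06) at 427 mg/kg-d.

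Sgk1 encodes a kinase that raises sodium and glucose transport and is induced by glucocorticoids and mineralocorticoids. It was near the lower limit of the assay, with 5 to 44 reads per FROZ library (median 14), and ran from 1.04 to 2.53 (median 1.65) in controls, 0.72 to 2.02 (median 1.37) at 198, 1.41 to 2.26 (median 1.69) at 313 and 1.00 to 2.07 (median 1.27) at 427 mg/kg-d. All 4 groups overlapped. The log2 difference was -0.01 at 313 (limma FDR = 0.980, 95% interval -0.50 to 0.48) and -0.33 at 427 mg/kg-d (FDR = 0.332, -0.82 to 0.17). Changes within these bounds were not detectable, given the spread between animals. At so few CPM, the 1 added before the log also makes log2 differences smaller than those of the CPM.

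Arrdc3 encodes an arrestin-domain adaptor that sends membrane receptors, the beta-adrenergic receptors among them, towards degradation. It ran from 4.86 to 5.98 (median 5.75) in FROZ controls, 5.82 to 7.63 (median 6.98) at 198, 6.13 to 7.35 (median 6.62) at 313 and 5.97 to 7.65 (median 6.21) at 427 mg/kg-d. Above every control lay 5 of 6 animals at 198, 6 of 6 at 313 and 5 of 6 at 427 mg/kg-d. The log2 difference was 1.29 (SE 0.29, 2.44-fold higher) at 198, 1.14 (SE 0.29, FDR = 0.00439) at 313 and 0.90 (SE 0.29, FDR = 0.0186) at 427 mg/kg-d.

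Differentially expressed genes (DEGs) were called by limma at an FDR under 0.05 over all genes of a table and a fold change above 2. At 313 mg/kg-d in FROZ, 5 of the 7 members were DEGs (4 lower and Arrdc3 higher), where 2.31% of all genes were. At 427 mg/kg-d, Tsc22d3 and Zbtb16 were DEGs, where 3.50% of all genes were. At the FDR without the fold limit, 5 members passed, as did 30.1% of all genes. The median log2 difference of the 7 members was -1.02 at 313 and -0.77 at 427 mg/kg-d, beside 0.106 and 0.104 over all genes. The comparisons of 198, 313 and 427 mg/kg-d share the same 6 controls and are not independent of each other. All animals of a dose lay on one side of the controls for 1.89% of all genes at 198, 11.5% at 313 and 14.7% at 427 mg/kg-d. The members did so for 5 genes at 313 and 4 at 427 mg/kg-d. Since Fkbp5 at 198 mg/kg-d took part in the choice of members, nothing is read from the 198 mg/kg-d share, nor from the 0.106% of all genes that were DEGs there.

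The calls of 2 genes at 313 mg/kg-d sat close to the fold limit. Hsd11b1 was 2.03-fold and Fkbp5 2.08-fold lower, and single animals moved them under 2-fold, with the FDR still passed. Hsd11b1 was no longer a DEG without control animal 4, 5 or 6 or without animal 73, 74 or 75 of the 313 mg/kg-d group (log2 differences of -0.949 to -0.999). Fkbp5 was no longer one without control animal 3 (-0.992) or animal 74 (-0.960), so that 3 DEGs were left without animal 74. Arrdc3 came to 1.00 on the log2 scale, just under the fold limit, when libraries were scaled by the median ratio.

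The steps between doses do not use the controls. That from 198 to 313 mg/kg-d uses the animals whose values took part in the choice of members, so it is a description without a test. Zbtb16 differed by -1.06 (SE 0.23) on the log2 scale, Tsc22d3 by -0.95 (SE 0.23) and Hsd11b1 by -0.77 (SE 0.13), against 0.23 (SE 0.15) for Fkbp5. Over all genes, 1.37% were DEGs in this step, from which nothing is read for the members. From 313 to 427 mg/kg-d no member was a DEG in limma, where 0.497% of all genes were, and none had an unadjusted p under 0.05, where 17.5% of all genes did.

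**Figure D2:**
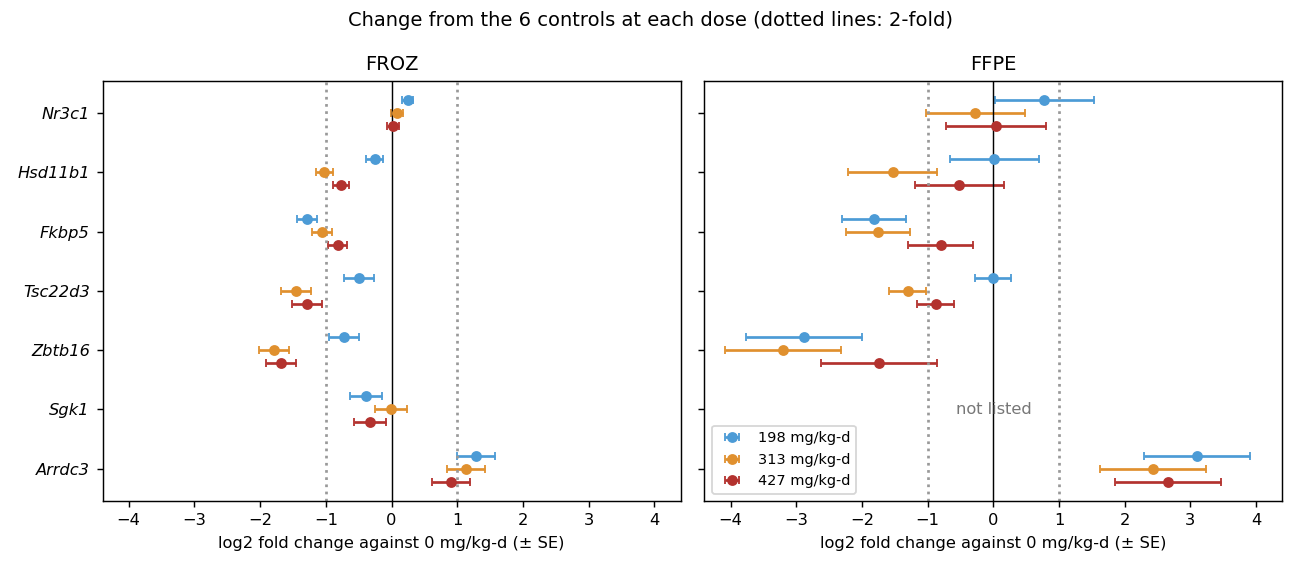
Log2 fold change from the 6 controls, horizontal axis, with bars of 1 SE from limma, for each gene (rows) and dose (colours) in FROZ (left) and FFPE (right), with dotted lines at 2-fold. In FROZ the 198 mg/kg-d point of Fkbp5 (-1.29) is the lowest of its 3 doses, whereas those of Tsc22d3 (-0.50) and Zbtb16 (-0.72) are the highest of theirs, and the FFPE bars are wider throughout.

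The FFPE libraries of the same animals gave noisier levels. The SD within doses was 0.287 for Fkbp5, 0.448 for Tsc22d3, 0.433 for Zbtb16 and 0.569 for Arrdc3 in FROZ, beside a median of 0.241 over all genes. In FFPE the values were 0.956, 0.509, 1.82 and 1.56, beside a median of 1.36. Tsc22d3 was the member whose spread differed least between the tissues.

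**Figure D3:**
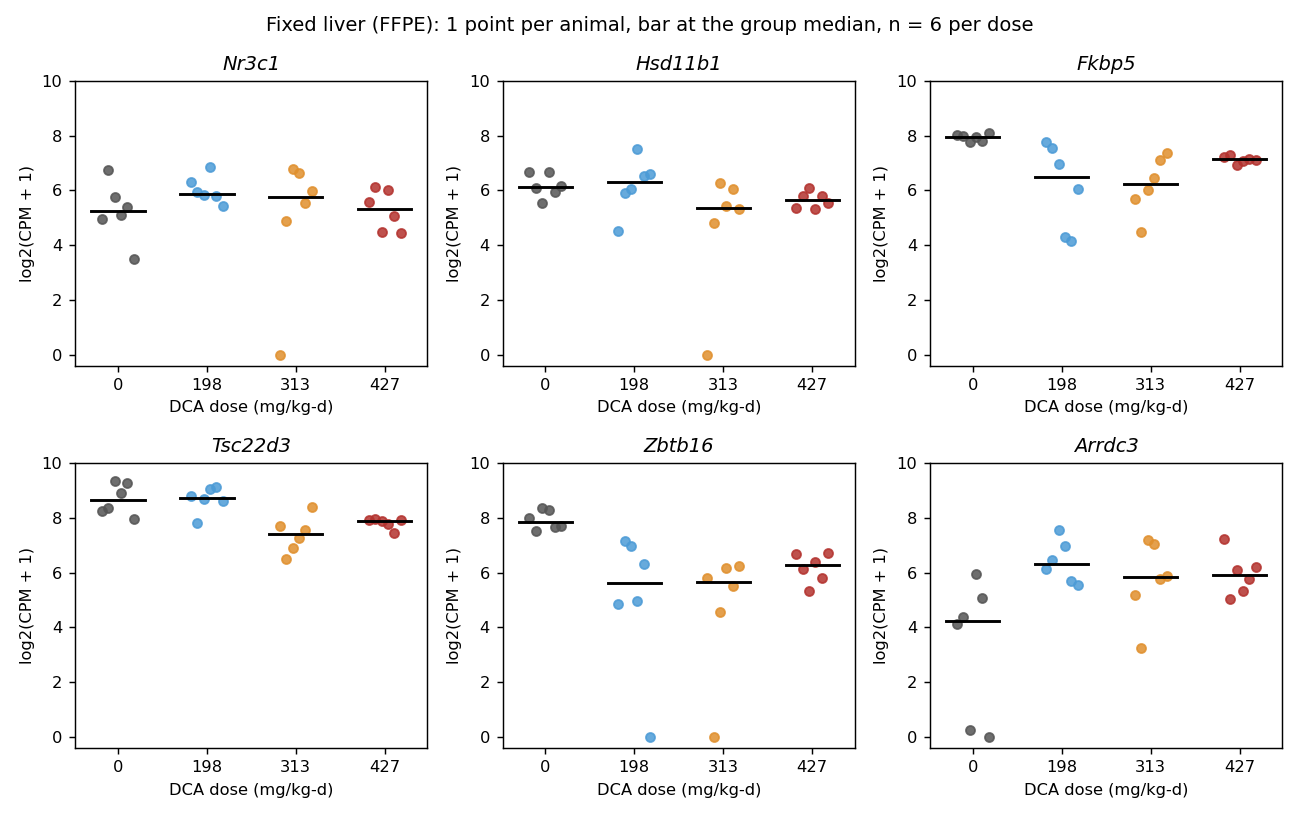
Levels of the 6 genes listed in FFPE liver as log2(CPM + 1), vertical axis, at each DCA dose in mg/kg-d, horizontal axis, with 1 point per animal and a bar at the median. For Fkbp5 and Zbtb16 the animals of the upper doses sit below the lowest control (7.78 and 7.52), as do, as a description, those at 198 mg/kg-d. Exactly 0 is the level of 5 points.

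Fkbp5 in FFPE ran from 7.78 to 8.11 (median 7.97) in controls, 4.17 to 7.77 (median 6.51) at 198, 4.49 to 7.37 (median 6.23) at 313 and 6.95 to 7.30 (median 7.13) at 427 mg/kg-d. All 6 animals at 313 and all 6 at 427 mg/kg-d lay below every control. As a description, so did those at 198 mg/kg-d, the highest of which (animal 49, 7.77) was next to the lowest control (7.78). The log2 difference was -1.81 (SE 0.49) at 198, -1.76 (SE 0.49, FDR = 0.0808) at 313 and -0.81 (SE 0.49, FDR = 0.796) at 427 mg/kg-d. The SE comes from all 4 groups, and the SD of the 427 mg/kg-d animals and the controls was smaller than that of the groups between them.

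Zbtb16 in FFPE ran from 7.52 to 8.35 (median 7.85) in controls and from 5.31 to 6.72 (median 6.27) at 427 mg/kg-d. Animals 49 to 54 of the 198 mg/kg-d group had 4.85, 7.17, 6.96, 4.95, 6.30 and 0, and animals 73 to 78 of the 313 mg/kg-d group had 5.81, 0, 4.57, 6.18, 5.50 and 6.24, where 0 means listed at 0. No animal at 313 or 427 mg/kg-d reached the lowest control, nor, as a description, did those at 198 mg/kg-d. The log2 difference was -3.21 (SE 0.88, FDR = 0.0790) at 313 and -1.75 (SE 0.88, FDR = 0.618) at 427 mg/kg-d, with 1 library of the 313 mg/kg-d group at 0.

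Tsc22d3 in FFPE ran from 7.98 to 9.36 (median 8.65) in controls, 7.82 to 9.13 (median 8.75) at 198, 6.49 to 8.41 (median 7.41) at 313 and 7.44 to 7.96 (median 7.90) at 427 mg/kg-d. Below every control lay 1, 5 and 6 of 6 animals, in order of dose. It was the 1 DEG of the 6 members at 313 mg/kg-d, with a log2 difference of -1.31 (SE 0.28, FDR = 0.00920), a call that was lost without the trend in the variance prior (FDR = 0.0822). From 198 to 313 mg/kg-d the difference was -1.30 (SE 0.28), as a description. The highest dose differed from controls by -0.88 (SE 0.28, FDR = 0.108).

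Arrdc3 in FFPE had 4.12, 4.37, 0.24, 5.96, 5.07 and 0 in control animals 3 to 8. The treated animals ran from 5.54 to 7.57 (median 6.30) at 198, 3.24 to 7.19 (median 5.82) at 313 and 5.03 to 7.23 (median 5.93) at 427 mg/kg-d and overlapped the controls at each dose. The log2 difference was 2.43 (SE 0.81, FDR = 0.179) at 313 and 2.65 (SE 0.81, FDR = 0.0872) at 427 mg/kg-d, with 2 controls at or close to 0.

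Nr3c1 in FFPE ran from 3.50 to 6.76 (median 5.25) in controls, 5.42 to 6.86 (median 5.88) at 198 and 4.43 to 6.11 (median 5.33) at 427 mg/kg-d, and 5 animals at 313 mg/kg-d lay between 4.87 and 6.79 while animal 73 was listed at 0. Hsd11b1 ran from 5.54 to 6.67 (median 6.12) in controls, 4.51 to 7.53 (median 6.30) at 198 and 5.33 to 6.10 (median 5.66) at 427 mg/kg-d, and 5 animals at 313 mg/kg-d lay between 4.80 and 6.27 with animal 73 again at 0. Both overlapped the controls at every dose. Their FDRs were 0.937 and 0.359 at 313 and 1.00 for both at 427 mg/kg-d, and without the 4 libraries with over 1000 genes at 0 the 313 mg/kg-d difference of Nr3c1 turned from -0.27 to 0.72.

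In FFPE, DEGs made up 0.809% of all genes at 313 and 1.81% at 427 mg/kg-d against controls, and 0.270% from 313 to 427 mg/kg-d. Among the 6 members, limma called 1, 0 and 0 DEGs in these comparisons. An unadjusted p under 0.05 was found for 5, 2 and 0 members, beside 11.7%, 8.71% and 9.73% of all genes. From 198 to 313 mg/kg-d 0.794% of all genes were DEGs, from which nothing is read for the members. Of all FFPE genes, 0.480% at 198, 1.57% at 313 and 4.48% at 427 mg/kg-d had all treated animals on one side of the controls, and the members did so for 2 genes at 313 and 3 at 427 mg/kg-d, with nothing read from the lowest dose. The limma fit on the 2 groups alone called Fkbp5 (FDR = 0.0207) and Zbtb16 (FDR = 0.0443) besides Tsc22d3 at 313 mg/kg-d, among 50 of all 6673 genes. At 427 mg/kg-d it called Zbtb16 (FDR = 6.87e-05), among 232 of all 6673 genes beside 121 in the fit on all doses.

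The response in FFPE was set against that in FROZ as the difference between the 2 libraries of each animal. No member differed at an FDR under 0.05 in limma at 313 mg/kg-d, where 0% of the 6591 genes in both tables did, or at 427 mg/kg-d, where 0.0303% did. An unadjusted p under 0.05 was found for 0 and 1 members, beside 7.39% and 2.22% of the genes. The 1 member was Arrdc3, named after its value was seen, with an FFPE minus FROZ response of 1.75 (95% interval 0.19 to 3.32) on the log2 scale at 427 mg/kg-d. For Fkbp5 the difference was 0.02 (95% interval -1.02 to 1.05) and for Tsc22d3 0.40 (-0.23 to 1.03), and intervals of this width leave sizeable differences between the tissues undetected.

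Within a dose, the FROZ and FFPE libraries of an animal were compared for the 6 genes after the dose mean was taken from each. Arrdc3 rose and fell together in the tissues, with Pearson r = 0.53 (n = 24 animals, permutation p = 0.00483, adjusted p = 0.0290 over 6 genes) and Spearman rho = 0.61 (permutation p = 0.00346, adjusted p = 0.0208). Within the 4 doses r was 0.39, 0.73, 0.81 and 0.89, and both libraries lay on the same side of their dose means in 19 of 24 animals. Without the 2 animals farthest from the median, r was 0.51 (adjusted p = 0.0835), and with an offset of 0.1 CPM it was 0.40 (adjusted p = 0.103).

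The other 5 genes did not pass the correction on r. Tsc22d3 came to r = 0.57 (permutation p = 0.0219, adjusted p = 0.0658), rho = 0.52 (adjusted p = 0.0750) and r = 0.59 without the 2 farthest animals. Fkbp5 had r = 0.48 (permutation p = 0.106) and Nr3c1 r = 0.46 (permutation p = 0.0578). Hsd11b1 had r = 0.36 and Zbtb16 r = 0.04.

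**Figure D4:**
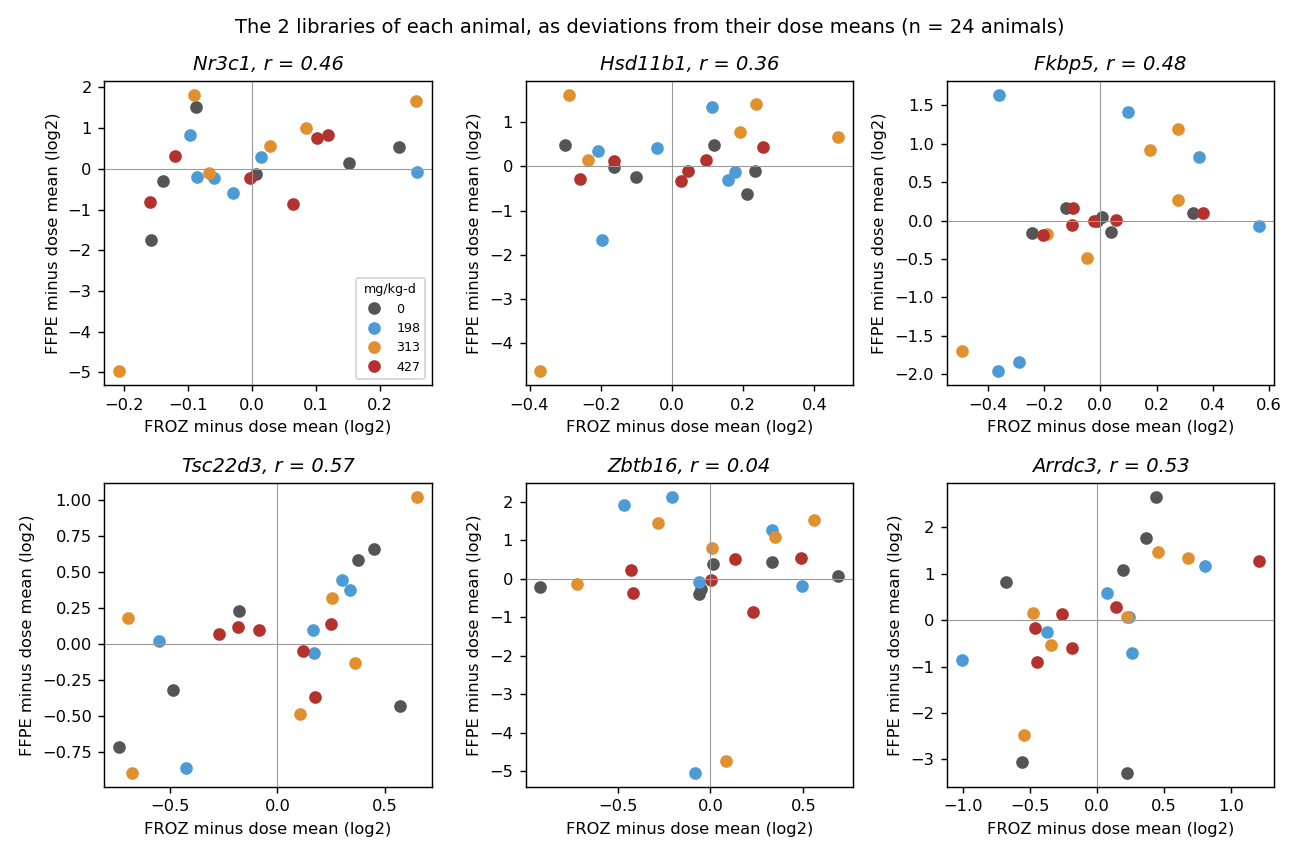
Deviation of the FFPE library (vertical axis, log2) against that of the FROZ library (horizontal axis, log2) of the same animal from their dose means, for 6 genes and 24 animals, coloured by dose, with Pearson r in each title. The Arrdc3 points lean upwards (r = 0.53) while those of Zbtb16 do not (r = 0.04), and the lowest points of Nr3c1, Hsd11b1 and Zbtb16 are libraries listed at 0.

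Among FROZ animals of the same dose, none of the 21 pairs of members passed the correction on Pearson r. The closest was Sgk1 with Arrdc3, which moved in opposite directions, with r = -0.59 (n = 24, permutation p = 0.00427, adjusted p = 0.0897) and rho = -0.64 (permutation p = 0.00192, adjusted p = 0.0403). Within the doses r was -0.60, -0.45, -0.80 and -0.69, and it was -0.55 without the 2 farthest animals. Among the genes that fell with DCA, Tsc22d3 and Zbtb16 had r = 0.42 (permutation p = 0.0776, adjusted p = 0.446), with a sign that differed between doses, from 0.84 in controls to -0.74 at 427 mg/kg-d.

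The genes most like each member over the same 24 FROZ animals, again within doses, were named by Pearson r, as a description. They were Pcmt1 (0.74), Necab1 (0.73) and Pipox (0.70) for Nr3c1, Cnpy2 (0.81), Cyp2c50 (0.80) and Abcb11 (0.80) for Hsd11b1, and H2-K2 (0.73), Nipsnap3b (0.71) and Gm11127 (0.71) for Fkbp5. The class I histocompatibility gene H2-K2 and the cytochrome P450 gene Cyp2c50 have near-identical relatives, and their counts are uncertain. For Tsc22d3 they were Chd9 (0.84), Mafg (0.78) and Fbxw9 (0.78), and for Zbtb16 Deaf1 (0.83) and Pck1 (0.79), the gluconeogenic phosphoenolpyruvate carboxykinase. For Sgk1 they were Ddhd1 (0.76), Insc (0.76) and Shb (0.75), and for Arrdc3 Crebrf (0.73), Zfp871 (0.68) and Slc38a9 (0.68).

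Genes around the receptor moved little in FROZ. None of the 8 listed receptor chaperones (of 9 looked for), which fold the receptor and deliver it to its hormone, was a DEG or passed the FDR at any dose. Of 9 coregulators, which link the receptor to chromatin, none was a DEG. At 427 mg/kg-d the coactivator Ncoa1 rose by 0.41 (FDR = 8.84e-05) and the corepressor Ncor1 by 0.42 (FDR = 0.000536) on the log2 scale, both under 2-fold. Of 6 listed genes of steroid transport and metabolism (of 7), none was a DEG, the mineralocorticoid receptor Nr3c2 rose by 0.75 (FDR = 0.00170) and the aldo-keto reductase Akr1c6 fell by 0.34 (FDR = 0.0441) at 427 mg/kg-d.

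A list of 27 other genes that glucocorticoids induce in liver or elsewhere moved both ways at 427 mg/kg-d. Most of its listed genes were lower than in controls at 198 mg/kg-d. Of its 25 listed genes, 1 was lower and 0 higher as DEGs at 198, 2 lower and 0 higher at 313, and 2 lower and 3 higher at 427 mg/kg-d, where 8 fell and 6 rose at the FDR alone. The list's median log2 difference was -0.387, -0.164 and -0.166 from 198 to 427 mg/kg-d, beside 0.0698, 0.106 and 0.104 over all genes. Lpin1, a phosphatidate phosphatase and coactivator of fat oxidation genes, was the DEG of all 3 doses, with log2 differences of -2.53 (FDR = 6.86e-09), -2.88 (FDR = 6.47e-11) and -2.63 (FDR = 1.09e-10). Its median level was 8.68 in controls and 6.27, 5.86 and 6.05 in the treated groups.

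At 427 mg/kg-d the metallothionein Mt2, which binds zinc, was the other DEG that fell, by 2.65 (SE 0.83, FDR = 0.0159). Pck1 fell by 1.06 (FDR = 0.000461) at 313 mg/kg-d and was under 2-fold lower at 427 mg/kg-d. The 3 that rose at 427 mg/kg-d were Pdk4 by 2.98 (FDR = 6.71e-06), a kinase that shuts off pyruvate dehydrogenase, Igfbp1 by 2.34 (FDR = 0.000279), a fasting-induced binding protein of insulin-like growth factors, and Angptl4 by 1.26 (FDR = 3.84e-05), an inhibitor of lipoprotein lipase. Fasting and fatty acid receptors also control these 3 genes, and DCA inhibits the kinase family to which Pdk4 belongs. The part of either in these levels was not tested. In FFPE 20 genes of this list were listed, and Lpin1 was the 1 DEG at 427 mg/kg-d, where 1.81% of all genes were.

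**Figure D5:**
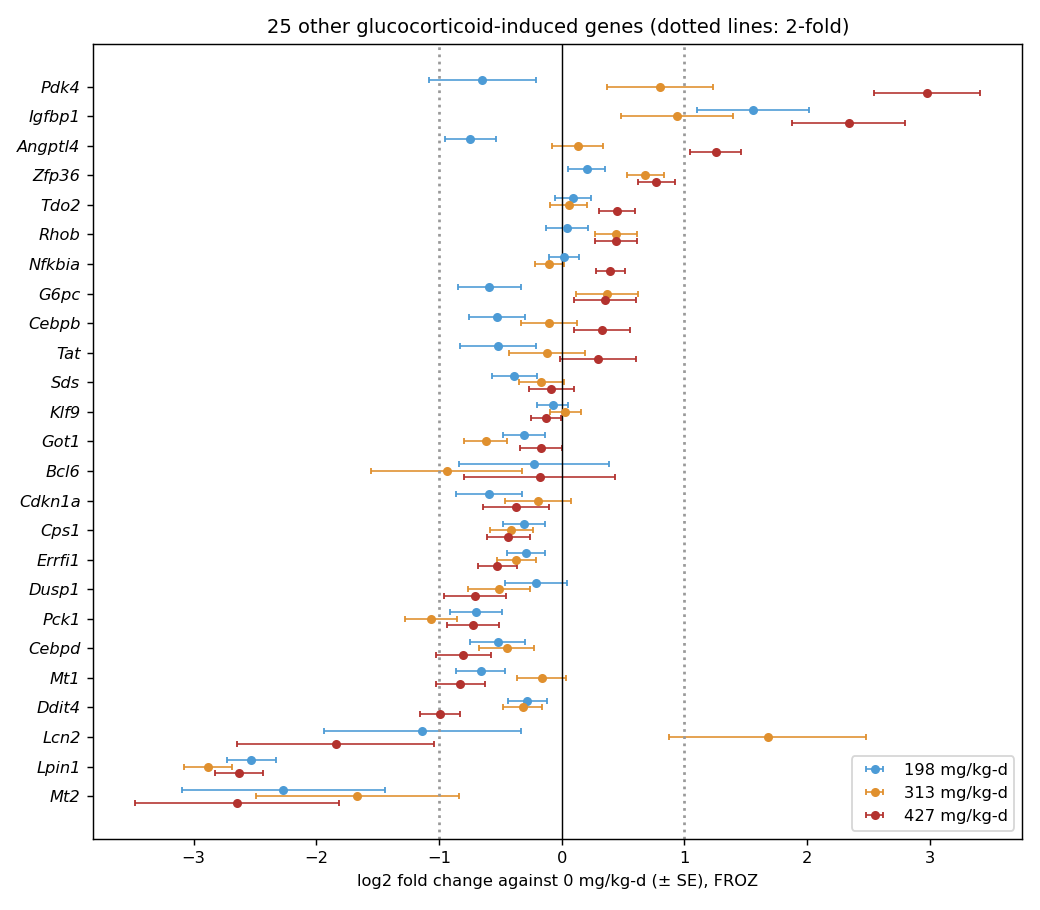
Log2 fold change from the controls in FROZ (horizontal axis, bars of 1 SE) of the 25 listed genes of the list of other glucocorticoid-induced genes, ordered by their value at 427 mg/kg-d, with dotted lines at 2-fold. Lpin1 sits near -2.6 at all 3 doses, and Pdk4 ranges from below 0 at 198 to 2.98 at 427 mg/kg-d.

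Clock genes, which set the daily rhythm that glucocorticoids also follow, moved with dose in FROZ. Of 13 listed (of 16), 1 was a DEG at 198, 5 at 313 and 8 at 427 mg/kg-d, beside 0.106%, 2.31% and 3.50% of all genes. All these clock DEGs were higher except 2 at the highest dose. There Nr1d1 rose by 3.21, Dbp by 3.13, Nr1d2 by 2.18 and Per3 by 1.77 on the log2 scale, and Nfil3 fell by 1.44. Nr1d1 encodes a repressor of the clock, Dbp an output factor of the evening phase and Nfil3 its opponent. The hour of necropsy of each group is not given in the sources used here, and its part in the levels of the 7 members was not tested.

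Markers of other liver cells were listed beside the members. No marker of any of 8 cell types was a DEG at any dose in FROZ. At the FDR alone, which 1.56% of all genes passed at 198, 26.7% at 313 and 30.1% at 427 mg/kg-d, 4 of 6 listed Kupffer cell and macrophage markers fell at 427 mg/kg-d, where the summed level of the list was 120.7 to 184.8 CPM beside 196.8 to 270.4 CPM in controls, without overlap. At 313 mg/kg-d 2 of 3 neutrophil markers rose, 2 of 8 hepatocyte markers fell, 1 of 7 endothelial markers fell, and 1 of 5 stellate cell markers rose and 1 fell. At 427 mg/kg-d 1 hepatocyte marker rose and 1 endothelial and 1 stellate cell marker fell, whereas no B cell, T and NK cell or cholangiocyte marker passed at any dose. The part of these cells in the falls of Hsd11b1, Fkbp5, Tsc22d3 and Zbtb16 was not tested.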

How the data were processed

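TempO-Seq libraries of FROZ and FFPE liver from 24 male B6C3F1 mice (48 libraries, 6 animals per dose) were used, with groups and animal numbers from the sample records. Each table was deposited as log2(CPM + 1), made by the authors from gene counts. They aligned reads to mm10 with STAR 2.6 in Partek Flow, counted on RefSeq transcripts by expectation maximization, added 0.0001 to counts, dropped genes whose geometric mean did not exceed 1, and scaled each table to CPM. Abundant probes were attenuated in the assay. Reads per library were recovered from the step of low CPM values. Reads carry no molecular identifiers, so precision from depth covers counting error only. Expectation maximization leaves counts that need not be whole, so no count test was run.

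The 7 members, the gene lists and the tests were chosen with earlier results of these data known. Levels were fitted by limma 3.58.1 in R 4.3.3 (variance prior following the mean, 1 mean per dose, all 24 libraries of a table), with the FDR (Benjamini-Hochberg) over all genes of the table, and p-values measure the spread between animals. FFPE and FROZ share animals by animal number, and the tissue contrast was fitted on the difference within each animal. The steps from 198 to 313 mg/kg-d were fitted alike but are described without a test. Correlations used residuals from dose means and 100000 two-sided permutations within doses (scipy 1.17.1, numpy 2.4.6). Both scripts were tested on simulated data. Named genes were the members, list genes that were DEGs in FROZ at 427 mg/kg-d (up to 5 per list), and the 3 genes most like each member, among those with a mean of at least 3 log2(CPM + 1). Pck1, Ncoa1, Ncor1, Nr3c2 and Akr1c6 were added after their values were seen. The lists were receptor chaperones, coregulators, steroid transport and metabolism, other glucocorticoid-induced genes, clock genes and markers of 8 cell types, where Per1 and Per2, and Tat and Cps1, stand in 2 lists each. Alternatives were an offset of 0.1 CPM, median-ratio scaling, a mean of at least 5 CPM, a variance prior without trend, the libraries of 2 groups only, array quality weights and leaving out each animal. Some genes under these rules are not reported here, and RNA-Seq libraries were not used here.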

Additional observations from a re-analysis of the deposited data

Results flagged for a closer look

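In 52 groups of 6 libraries (each gene, table and dose), the highest or lowest animal stood apart by Dixon's test in 7, where chance gives about 1 in 20. In FROZ these were Nr3c1 of animal 50 at 198 mg/kg-d, at 6.67 with the next animal at 6.42, and Arrdc3 of animal 97 at 427 mg/kg-d, at 7.65 with the next at 6.58. In FFPE, 4 were libraries listed at 0. They were Nr3c1 of animal 73 at 313 mg/kg-d (0.0, next 4.87), Hsd11b1 of the same animal (0.0, next 4.80), Zbtb16 of animal 54 at 198 mg/kg-d (0.0, next 4.85) and Zbtb16 of animal 74 at 313 mg/kg-d (0.0, next 4.57). The last was Tsc22d3 of animal 101 at 427 mg/kg-d, at 7.44 with the next animal at 7.76.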

How the results depend on the processing

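The alternatives changed no direction of a called member. In FROZ, the count of 5 DEGs among the members at 313 mg/kg-d ranged from 3 to 5 with single animals left out (3 without animal 74), and the 2 at 427 mg/kg-d stayed at 2 in every such fit. From 198 to 313 mg/kg-d, a step described without a test because it uses the animals that took part in the choice of members, the number of members past the thresholds was 1 and became 2 under median-ratio scaling and 0 with array quality weights, and ranged from 0 to 2 with single animals left out (0 without animal 49, 53 or 75, and 2 without 50, 51, 73, 76 or 78). From 313 to 427 mg/kg-d the number of DEGs among the members stayed at 0 in both tables with single animals left out.

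In FFPE, the 1 DEG among the members at 313 mg/kg-d became 0 without the trend in the variance prior (54 genes in all became 35). The count became 3 with array quality weights (61 in all) and 3 with the libraries of 2 groups only (50 in all). Without the libraries with over 1000 genes at 0, an alternative added after seeing the data, it became 2 (56 in all). It ranged from 1 to 3 with single animals left out (3 without animal 78). The 0 DEGs at 427 mg/kg-d became 3 with array quality weights (121 genes in all became 281), 1 with 2 groups only (232 genes in all) and 0 to 1 with single animals left out (Arrdc3 without control animal 6). For the step from 198 to 313 mg/kg-d, also a description, no count is given. The log2 difference of Tsc22d3 there was -1.30 with 2 groups only, -0.94 with array quality weights and -1.23 without the libraries with many zeros. The cause was not tested. The FFPE minus FROZ response without the pairing by animal (no replicate block) gave 0 members at 313 and at 427 mg/kg-d, as the paired fit did, and 0 to 0 with single animals left out.

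The 1 gene whose FROZ and FFPE levels correlated within doses became 0 with an offset of 0.1 CPM and 0 without the 2 farthest animals. Of the values of single genes under an alternative, 1526 stayed on their side of the threshold, 18 passed it and 20 no longer did. FFPE depth and genes at 0 limit what that tissue can show, and Sgk1, at 5 to 44 reads, is limited in FROZ.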
